A study of Mus musculus with 6 samples.

Results

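The genes described here are 48 interferon-stimulated genes and regulators of the interferon response, listed by name, and their levels were read in haematopoietic stem cells (HSCs) with and without the muscarinic acetylcholine receptor gene Chrm1. Of the 48 genes, 44 had a row of their own on the array and 43 were bright enough to test, among 22180 genes with a row and 11094 tested. Ifi44 had no row in the probe annotation used. Oas1a, Gbp2 and Dtx3l lay on rows shared with another gene symbol and were left out. Mx1 lay below the signal needed for testing, which was the median of all gene means, 6.77 on the log2 scale.

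The HSCs came from the bone marrow of mice at steady state, and 3 arrays were made per genotype. Cells were sorted by flow cytometry as negative for lineage markers and Flt3 and positive for Sca1 and cKit. The wild type (WT) group was C57Bl/6, and the Chrm1-/- group, which lacks the receptor gene, carries the same strain label. The labels name no agent for either group. The sources used here do not give the making of the Chrm1 allele, the age of the mice or whether animals were pooled. The study concerns mobilization of HSCs through this receptor in the nervous system and glucocorticoid hormones. Its one comparison asks how the HSCs of the 2 genotypes differ at rest.

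Interferons are secreted proteins that signal through cell surface receptors and Janus kinases to STAT proteins. With interferon regulatory factors (IRFs), the STATs switch on a set of antiviral genes whose products sense viral RNA, degrade it, block its translation or keep virions from entering or leaving the cell. HSCs express part of this set without infection, and interferon can drive resting HSCs into division.

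The 6 arrays correlated between 0.9175 and 0.9331 over all rows of the array, with WT replicate 3 in the lowest pairs. Of 14 listed HSC marker genes 13 had a row, and 12 of these, Kit, Cd34 and Procr among them, reached the signal needed for testing. The mean of the 13 ran from 8.83 to 8.91 over the WT arrays and from 8.77 to 8.92 over the Chrm1-/- arrays. Procr was lower in Chrm1-/- without overlap, at a difference of -0.25, with an unadjusted p of 0.0393 and an adjusted p of 0.996 in limma. Slamf1 read 8.04, 7.87 and 7.86 in WT and 7.18, 7.02 and 8.44 in Chrm1-/-, which the list mean does not show. Its groups overlapped, at a difference of -0.38 ± 0.38 (SE). Of 10 T and NK cell genes with a row 3 (Nkg7, Gzma and Il7r) reached that signal by their mean, and Cd3e, Cd3d and Cd3g did not. Cd3g read 7.16 on Chrm1-/- replicate 1 and between 4.87 and 6.32 on the others. The mean of these 10 genes ran from 6.72 to 7.04 in WT and from 6.74 to 7.05 in Chrm1-/-. Of 7 B cell genes with a row 2 (Cd79b and Pax5) reached that signal by their mean, and Cd79a and Ms4a1 did not. Cd79a still read 7.77 on WT replicate 3 and 7.25 on Chrm1-/- replicate 1, and lay below the signal on the other arrays. Cd79b was highest on the same arrays, at 9.26 and 9.11. The mean of these 7 genes ran from 6.34 to 6.74 in WT and from 6.41 to 6.61 in Chrm1-/-, with the same arrays highest. Plasmacytoid dendritic cells are the main producers of interferon, and the mean of their defining gene Siglech was below the signal as well. Of 11 marker genes of that cell type with a row 7 reached the signal, 2 of which, Irf7 and Bst2, are also among the interferon-stimulated genes. The mean of these 11 ran from 7.07 to 7.25 over the WT arrays and from 7.10 to 7.26 over the Chrm1-/- arrays. Monocyte and macrophage markers, 8 of 11 at or above the threshold, ran from 7.75 to 7.99 and from 7.54 to 7.90. Granulocyte precursor markers, 7 of 11, ran from 7.45 to 7.48 and from 7.20 to 7.49. That list joins bright and dim genes. Mpo and Ctsg averaged 11.35 and 10.55 in WT and 11.27 and 10.10 in Chrm1-/-, while S100a8 and Camp lay below the signal. Cd68, a macrophage gene of this check, was lower in Chrm1-/- without overlap, at a difference of -1.07, with WT replicate 3 at 10.25 and an unadjusted p of 0.0309 and an adjusted p of 0.996 in limma. All 5 erythroid genes with a row reached the signal, with list means from 8.79 to 9.13 and from 8.87 to 9.25. Megakaryocyte markers, 4 of 6, ran from 7.44 to 7.53 and from 7.15 to 7.49. Pf4 read 9.54, 9.46 and 9.33 in WT and 8.20, 9.44 and 8.06 in Chrm1-/-. Gp5, below the signal, was lower in Chrm1-/- without overlap, at a difference of -0.38. Limma without the filter gave it an unadjusted p of 0.0258 and an adjusted p of 0.9965. Stroma and endothelium markers, 4 of 8, ran from 6.975 to 7.12 and from 7.04 to 7.17. Procr, Slamf1, Cd68, Mpo, Ctsg, S100a8, Camp, Cd3g, Cd79a, Cd79b, Pf4 and Gp5 were singled out after their values were seen. The part of these cell types in the levels below was not tested. In bulk RNA, fewer cells of a type and less RNA per cell cannot be told apart.

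No interferon-stimulated gene was called as different between the genotypes. In limma, 0 of the 43 tested genes passed an adjusted p of 0.05, as did 0 of all 11094 (0%), and each of the 43 had an adjusted p of 0.996. At an unadjusted p under 0.05 there were 0 of 43 as well, against 332 of all tested genes (2.99%), of which 1.4% of all were higher in Chrm1-/- and 1.6% lower. The mean signal was lower in Chrm1-/- for 30 genes and higher for 13. Over all tested genes 49.2% were lower and 50% higher. The median difference, Chrm1-/- minus WT, was -0.05 on the log2 scale for the 43 and 0 over all tested genes. The median absolute difference was 0.11 for the 43 and 0.12 for all. A difference of at least 0.3 in either direction was found for 6 of the 43 (14%) and for 17.5% of all. Leaving out Chrm1-/- replicate 1 brought the median to -0.008, with 23 of 42 genes lower.

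**Figure D1:**
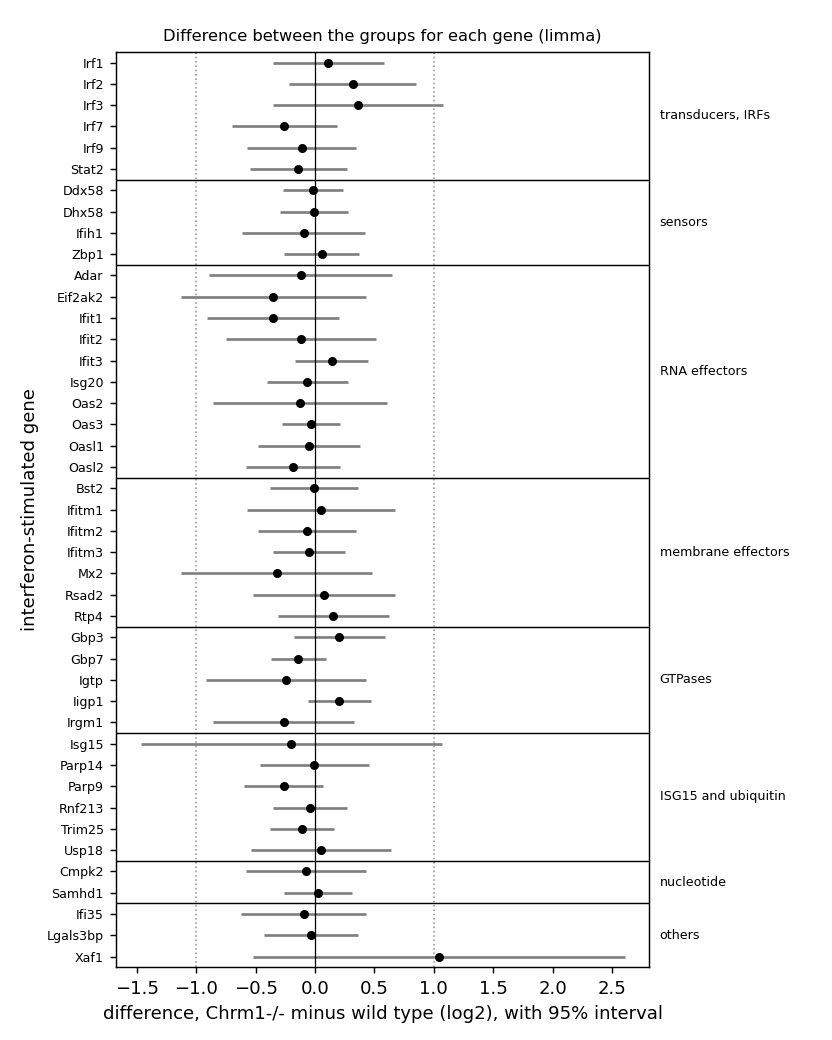
Difference in log2 signal, Chrm1-/- minus wild type, for the 43 tested interferon-stimulated genes (points), with 95% intervals from limma (bars), ordered by role; n = 3 arrays per genotype and dotted lines mark a 2-fold change. Every interval crosses 0, and those of Isg15, Eif2ak2, Mx2, Irf3 and Xaf1 cross a dotted line.

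The precision of 3 arrays per genotype set what could be seen. For 38 of the 43 genes (88.4%) the 95% interval of the difference lay within a 2-fold change in either direction, and for 22 (51.2%) within 1.5-fold. Over all tested genes these shares were 83.7% and 53.3%. The median standard error was 0.19 for the 43, from 0.09 for Gbp7 to 0.64 for Xaf1. The 5 genes whose intervals reached a 2-fold change were Isg15, Eif2ak2, Mx2, Irf3 and Xaf1.

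What many of the genes share is a promoter element. The interferon-stimulated response element (ISRE) is bound by IRFs and by the complex of STAT2 and IRF9, and the gamma-activated site (GAS) by STAT dimers. RefSeq promoter windows of GRCm38.p6, from 250 bases before to 50 after a transcript start, were held for 38 of the 48 genes, in 46 windows. The ISRE was searched as GAAANNGAAA on both strands and the GAS as TTCNNNGAA, which reads the same on both; overlapping matches were kept. An ISRE match lay in 19 of the 46 windows (41.3%) and in 3.44% of all 32851 windows, and a GAS match in 13 (28.3%) and 8.3%. These genes were listed as interferon responders, so the shares describe the list and are no test of it. A match is a run of letters, not a measured site. The stretches below belong to genes whose array values, means or differences follow, so that the matches can be set beside differences of either sign. They run 5′ to 3′ along each gene's own strand, and capitals mark the ISRE matches, or the GAS match for Irf1.
Stat2, chr10:128270251-128270310, plus strand: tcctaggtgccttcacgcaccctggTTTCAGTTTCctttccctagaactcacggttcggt
Isg15, chr4:156200850-156200921, minus strand: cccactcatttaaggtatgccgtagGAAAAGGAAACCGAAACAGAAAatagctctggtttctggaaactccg
Ifit1, chr19:34640760-34640838, plus strand: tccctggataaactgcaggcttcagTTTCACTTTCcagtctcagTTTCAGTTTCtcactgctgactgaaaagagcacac
Ifit3, chr19:34583348-34583441, plus strand: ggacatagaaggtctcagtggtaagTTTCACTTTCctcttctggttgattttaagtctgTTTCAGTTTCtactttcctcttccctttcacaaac
Bst2, chr8:71537562-71537627, minus strand: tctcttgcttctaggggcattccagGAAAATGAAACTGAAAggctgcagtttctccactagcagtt
Rsad2, chr12:26456538-26456597, minus strand: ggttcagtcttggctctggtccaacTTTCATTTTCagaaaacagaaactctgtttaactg
Gbp3, chr3:142559974-142560039, plus strand: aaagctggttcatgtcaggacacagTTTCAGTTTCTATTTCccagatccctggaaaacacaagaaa
Gbp7, chr3:142530258-142530317, plus strand: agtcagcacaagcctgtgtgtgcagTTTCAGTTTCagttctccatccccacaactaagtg
Igtp, chr11:58199497-58199555, plus strand: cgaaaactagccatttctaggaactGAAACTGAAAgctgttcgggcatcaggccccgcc
Irgm1, chr11:48871421-48871475, minus strand: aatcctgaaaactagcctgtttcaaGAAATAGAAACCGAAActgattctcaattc
Irf1, chr11:53769899-53769957, plus strand: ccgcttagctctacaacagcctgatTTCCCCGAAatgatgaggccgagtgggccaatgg

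Genes with and without a match were set side by side. A gene without a match may still hold the element, as only exact letters within the window were searched. Of 17 tested genes with an ISRE match 13 were lower in Chrm1-/- and 4 higher, with a median of -0.07 and a range from -0.35 to 0.32. Of 17 tested genes with a window and no match 12 were lower and 5 higher, with a median of -0.06 and a range from -0.26 to 1.04. Of 9 tested genes for which no window was held 5 were lower and 4 higher, with a median of -0.007. Ifit1 and Ifit3, which lie close together on chromosome 19 and hold 2 matches each, differed by -0.35 and 0.14. Gbp3 and Gbp7, close together on chromosome 3 and both with matches just before the start, differed by 0.20 and -0.14.

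The genes that carry the signal include 6 members, Stat2 and 5 IRFs. Stat2 encodes the STAT that pairs with IRF9 after type I interferon. It read 7.33, 6.81 and 7.06 on the WT arrays and 7.01, 7.02 and 6.75 on the Chrm1-/- arrays. Irf9, the DNA-binding part of that complex, read 8.45, 8.59 and 9.02 in WT and 8.36, 8.72 and 8.64 in Chrm1-/-. For both genes the groups overlapped, with differences of -0.14 ± 0.17 (SE) and -0.11 ± 0.19 (SE). For Stat2 it was -0.0083 without WT replicate 1 and -0.27 without WT replicate 2.

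Irf7, the IRF that amplifies interferon production and is itself induced by interferon, was near the lower limit for testing. The WT arrays read 6.99, 7.46 and 6.81 and the Chrm1-/- arrays 6.85, 6.83 and 6.81. WT replicate 2 stood highest, while the Chrm1-/- arrays lay within the range of WT. The difference was -0.26 (95% interval -0.70 to 0.18), and without WT replicate 2 it was -0.07.

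Irf3, the factor that starts interferon transcription after RNA or DNA sensing, read 8.18, 8.19 and 8.41 in WT. The Chrm1-/- arrays read 7.94, 8.94 and 8.98, so that replicate 1 lay below every WT array and the other 2 above. The difference was 0.36 (95% interval -0.36 to 1.08). Without Chrm1-/- replicate 1 it was 0.70, and without replicate 3 it was 0.18.

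Irf2, a factor that competes with the activator Irf1 for the same sites and is known to protect HSCs from interferon signalling, read 10.10, 10.43 and 9.72 in WT and 10.61, 10.14 and 10.45 in Chrm1-/-. The groups overlapped, at a difference of 0.32 ± 0.22 (SE). It was 0.14 without WT replicate 3 and 0.49 without WT replicate 2. Irf1 differed by 0.11 ± 0.19 (SE), from a mean of 8.16 to one of 8.27.

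The sensors of foreign nucleic acid differed little. Ddx58 encodes RIG-I, which binds viral RNA ends in the cytosol. It read 9.50, 9.65 and 9.50 in WT and 9.50, 9.50 and 9.59 in Chrm1-/-, a difference of -0.02 (95% interval -0.27 to 0.23). A change of 1.5-fold or more lay outside that interval. The interval rests on values of which 4 were exactly 9.50, and how they came to be equal was not tested. Ifih1, the long double-stranded RNA sensor MDA5, differed by -0.09 (95% interval -0.61 to 0.42). Its regulator Dhx58, with every WT array at 8.04, differed by -0.01 and the Z-form nucleic acid sensor Zbp1 by 0.06. Of these 4 genes 3 were lower and 1 higher.

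Of the 10 tested genes grouped here as RNA-binding or RNA-degrading effectors, apart from the sensors, 9 (90%) were lower in Chrm1-/-. The other 1, Ifit3, was higher. Of the 43 genes 69.8% were lower, and of all tested genes 49.2%. The 10 had 0 with an unadjusted p under 0.05 in limma. On leaving out some array, Adar, Ifit2, Isg20, Oas2, Oas3 and Oasl1 turned higher, while Ifit1, Oasl2 and Eif2ak2 stayed lower. Ifit1 encodes a protein that binds viral RNA lacking the host cap mark. It read 8.31, 8.68 and 7.94 in WT and 8.23, 7.93 and 7.72 in Chrm1-/-. WT replicate 3 lay among the Chrm1-/- arrays, and the difference was -0.35 (95% interval -0.90 to 0.20). Without WT replicate 3 it was -0.54, and without WT replicate 2 it was -0.17. Ifit3, a partner of Ifit1, read 7.67, 7.86 and 7.82 in WT and 8.09, 7.91 and 7.77 in Chrm1-/-. The groups overlapped, at a difference of 0.14 ± 0.13 (SE).

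Eif2ak2, the kinase PKR that halts translation on double-stranded RNA, read 9.73, 9.53 and 8.94 in WT and 9.27, 8.46 and 9.42 in Chrm1-/-. Chrm1-/- replicate 2 was the lowest array, and the difference of -0.35 (95% interval -1.13 to 0.43) became -0.06 without it. Adar edits adenosines in double-stranded RNA and so keeps a cell's own RNA from setting off the sensors. It read 8.29, 8.68 and 8.55 in WT and 8.17, 9.09 and 7.90 in Chrm1-/-, where replicate 2 was above every WT array and the others below. The difference was -0.12 (95% interval -0.89 to 0.65).

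The oligoadenylate synthetase genes make the second messenger that activates the nuclease RNase L. Oas2 read 7.30, 7.38 and 6.81 in WT and 7.09, 7.55 and 6.48 in Chrm1-/-, a difference of -0.12 ± 0.30 (SE). Oasl2, a related gene, read 9.66, 9.74 and 9.65 in WT and 9.17, 9.65 and 9.67 in Chrm1-/-. Replicate 1 alone was low, and without it the difference of -0.19 became -0.02. Oas3 and Oasl1 differed by -0.03 and -0.05, and the exonuclease gene Isg20 by -0.06. Ifit2 differed by -0.12.

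Genes for proteins that act at membranes or on virions were split, with 4 of 7 tested lower and 3 higher. Ifitm3, which blocks fusion of viruses with endosomes, read 11.79, 11.79 and 11.80 on the WT arrays. The Chrm1-/- arrays read 11.61, 11.67 and 11.95, to both sides of WT, and the difference was -0.05 (95% interval -0.35 to 0.25). Ifitm1, its relative at the plasma membrane, read 6.72, 6.79 and 6.91 in WT and 7.44, 6.51 and 6.63 in Chrm1-/-, where replicate 1 was the highest and the other 2 the lowest arrays, for a difference of 0.05 ± 0.26 (SE). Bst2, the tether that holds budding virions to the cell, read 9.05, 9.01 and 9.01 in WT and 8.76, 9.28 and 9.01 in Chrm1-/-. Its groups overlapped and its difference was -0.01 ± 0.15 (SE).

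The Mx genes encode dynamin-like antiviral GTPases that are defective in most inbred laboratory strains. Mx2 read 7.06, 6.84 and 7.64 in WT and 6.23, 7.10 and 7.24 in Chrm1-/-, a difference of -0.32 (95% interval -1.13 to 0.48). It was -0.01 without Chrm1-/- replicate 1 and -0.09 without WT replicate 3. Mx1, too dim to test, read 5.05, 5.17 and 5.04 in WT and 4.96, 4.95 and 5.01 in Chrm1-/-. Its groups did not overlap at this dim level, with a difference of -0.11. Of the others, Ifitm2 differed by -0.07, the radical enzyme gene Rsad2 (viperin) by 0.07 and the receptor-transporting protein gene Rtp4 by 0.15.

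Groups did not overlap for 2 of the 43 tested genes, 1 higher in Chrm1-/- and 1 lower. Over all tested genes 5.79% did not overlap, 2.81% with the Chrm1-/- arrays higher and 2.97% with them lower. The count among the 43 is not above that share. The 2 genes, Gbp7 and Iigp1, encode interferon-induced GTPases, which attack the vacuoles of intracellular pathogens. Gbp7 read 9.53, 9.48 and 9.45 in WT and 9.34, 9.36 and 9.34 in Chrm1-/-, lower by a small and even step. Its difference was -0.14 ± 0.09 (SE), with a 95% interval from -0.37 to 0.09. Iigp1 read 9.49, 9.37 and 9.49 in WT and 9.61, 9.77 and 9.58 in Chrm1-/-, higher by 0.20 ± 0.11 (SE), with an interval from -0.06 to 0.47. For Gbp7 and Iigp1, limma gave unadjusted p values of 0.188 and 0.110 and adjusted p values of 0.996. Without moderation, where each gene's own spread is the only yardstick, both had an unadjusted p under 0.05, and 2.28% of all genes did.

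Igtp and Irgm1 belong to the immunity-related GTPases, and Irgm1 is known to keep HSCs from interferon-driven exhaustion. Igtp read 10.86, 10.72 and 11.02 in WT and 11.24, 10.40 and 10.22 in Chrm1-/-, with replicate 1 above every WT array and the other 2 below. Its difference was -0.25 (95% interval -0.92 to 0.43), which was -0.56 without Chrm1-/- replicate 1 and -0.05 without replicate 3. Irgm1 read 8.75, 7.90 and 7.91 in WT and 7.91, 7.95 and 7.91 in Chrm1-/-. One array, WT replicate 1, was high, and without it the difference of -0.26 became 0.02. Gbp3, a guanylate-binding protein gene, was 8.44 ± 0.15 (SD, n = 3) in WT and 8.64 ± 0.23 (SD, n = 3) in Chrm1-/-.

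Isg15 encodes a ubiquitin-like protein that is joined to other proteins after interferon, and Usp18 encodes the protease that removes it and brakes the receptor. Isg15 read 7.65, 8.57 and 7.65 in WT and 6.73, 7.88 and 8.66 in Chrm1-/-. The Chrm1-/- arrays thus held both the lowest and the highest value, for a difference of -0.20 (95% interval -1.47 to 1.07). It was 0.31 without Chrm1-/- replicate 1 and -0.65 without replicate 3. Usp18 read 7.90, 7.98 and 7.94 in WT and 7.66, 8.54 and 7.77 in Chrm1-/-, where replicate 2 was high. The difference of 0.05 ± 0.24 (SE) turned to -0.23 without that array.

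Among the ubiquitin and ADP-ribosylation genes, Parp9, a macrodomain protein gene, was 8.82 ± 0.12 (SD, n = 3) in WT and 8.56 ± 0.18 (SD, n = 3) in Chrm1-/-. Its groups met at 8.74. Trim25, the ubiquitin ligase that activates RIG-I, differed by -0.11, the large ubiquitin ligase gene Rnf213 by -0.04 and Parp14 by -0.01. The last pair acts on nucleotides. Samhd1, which depletes the nucleotides that viruses need, read 11.12, 11.02 and 11.00 in WT and 11.21, 11.08 and 10.92 in Chrm1-/-, at a difference of 0.02 (95% interval -0.26 to 0.31). Cmpk2, a mitochondrial nucleotide kinase gene, differed by -0.07.

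Xaf1, a pro-apoptotic gene that antagonizes the caspase inhibitor XIAP, had the largest difference of the 43. It read 9.32, 8.90 and 7.11 in WT and 10.31, 9.05 and 9.10 in Chrm1-/-. WT replicate 3 was far below the other arrays and Chrm1-/- replicate 1 far above, and WT replicate 1 lay above 2 of the Chrm1-/- arrays. The difference was 1.04 ± 0.64 (SE), with a 95% interval from -0.52 to 2.61 and an unadjusted p of 0.155 in limma. Without WT replicate 3 it was 0.38, and without Chrm1-/- replicate 1 it was 0.63. Lgals3bp, a secreted glycoprotein gene, differed by -0.03 in its brighter row and by -0.02 in its second row. Ifi35, an interferon-induced leucine zipper protein gene, differed by -0.10 in the brighter row and by 0.16 in the second.

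**Figure D2:**
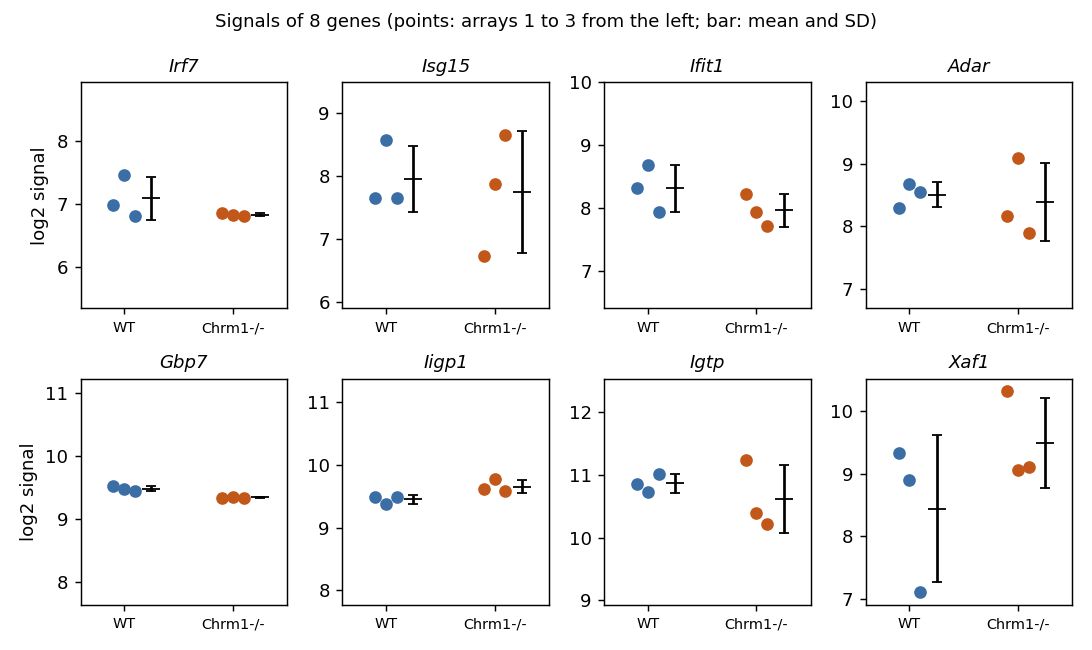
Log2 signal of 8 interferon-stimulated genes on the 3 wild type (blue) and 3 Chrm1-/- arrays (orange), with the mean and SD beside them; each panel spans 3.6 log2 units. Gbp7 and Iigp1 show small steps without overlap, while Isg15, Adar, Igtp and Xaf1 spread widely within a genotype.

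No array was the highest or the lowest for all of the genes, and whether the genes moved together over the arrays was not tested. Over the 43 genes, each less its mean over the 6 arrays, the WT arrays lay at 0.04, 0.05 and -0.05 on average and the Chrm1-/- arrays at -0.04, 0.008 and -0.008. Over all tested genes these means were 0.02, 0.01 and -0.03 in WT and -0.02, 0.009 and 0.008 in Chrm1-/-. Chrm1-/- replicate 1 held the lowest signal for 13 of the 43 genes (30.2%) and replicate 3 for 11 (25.6%), against 19.1% and 15.4% of all tested genes. Chrm1-/- replicate 2 held the highest for 10 (23.3%), against 15.8%. No WT array was lowest for more than 4 genes. High arrays differed from gene to gene: in Chrm1-/- replicate 2, Adar, Oas2 and Usp18 were high while Eif2ak2 and Ifit2 were low.

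**Figure D3:**
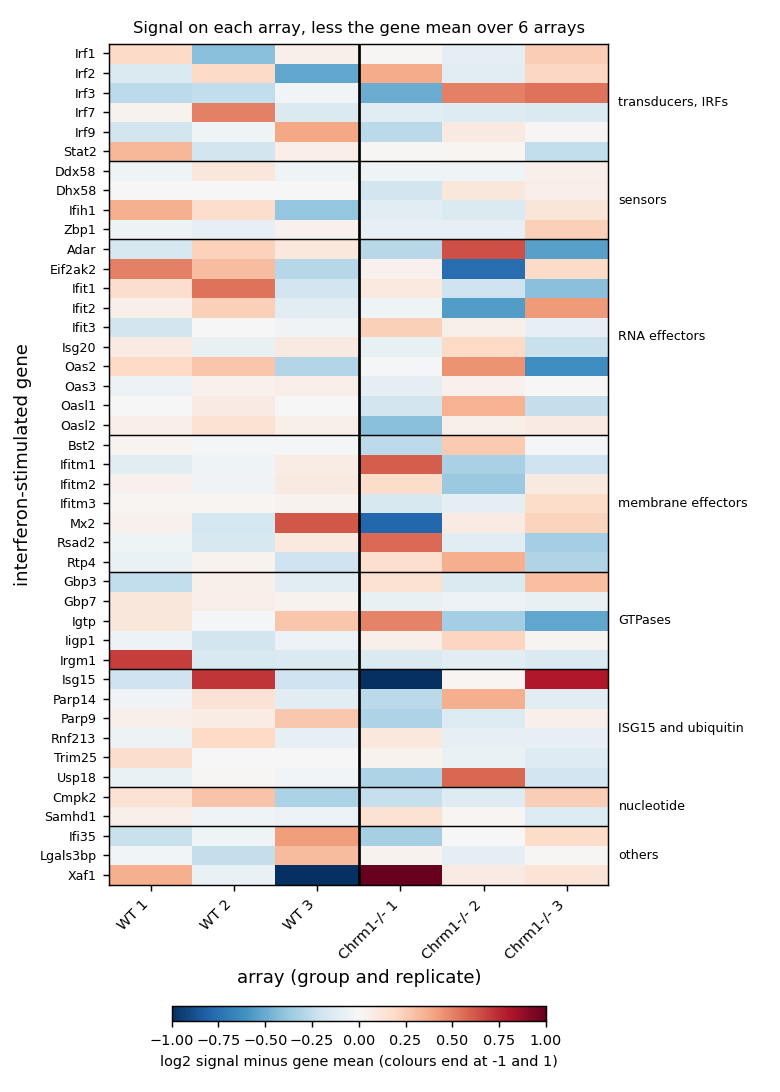
Heat map of log2 signal minus each gene's mean over the 6 arrays (red above, blue below) for the 43 tested genes, by role, with wild type arrays left of the vertical line and Chrm1-/- arrays right of it. No column is red or blue throughout, and of the strongest cells those of Isg15 (blue), Mx2 (blue) and Xaf1 (red) on Chrm1-/- replicate 1 differ in direction, while others lie on wild type replicate 3 (Xaf1) and Chrm1-/- replicate 2 (Eif2ak2).

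The spread within a genotype was wider in Chrm1-/- for most of the genes. The SD over the 3 arrays was larger in Chrm1-/- for 27 of 43 genes and larger in WT for 16, while 50.1% of all tested genes had the larger SD in Chrm1-/-. The median SD of the 43 was 0.13 in WT and 0.24 in Chrm1-/-, and over all tested genes 0.19 in both. An SD of at least 0.4 was found for 5 of the genes in WT and for 12 in Chrm1-/-, a count not made over all tested genes. Between pairs of WT arrays the median absolute difference over the 43 genes was 0.15, 0.15 and 0.22. Between pairs of Chrm1-/- arrays it was 0.30 for replicates 1 and 2, 0.26 for 1 and 3 and 0.21 for 2 and 3. Over all tested genes the same pairs gave 0.19, 0.24 and 0.22 in WT and 0.22, 0.23 and 0.195 in Chrm1-/-. Without Chrm1-/- replicate 1 the count was 20 larger in Chrm1-/- against 23 in WT, when the share over all genes was 40%, and among the 31 genes above the 75th percentile of gene means it was 17 against 14, with 50.1% over all genes above it. The counts of a larger SD and of an SD of at least 0.4 were chosen after the values were seen and were not tested.

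**Figure D4:**
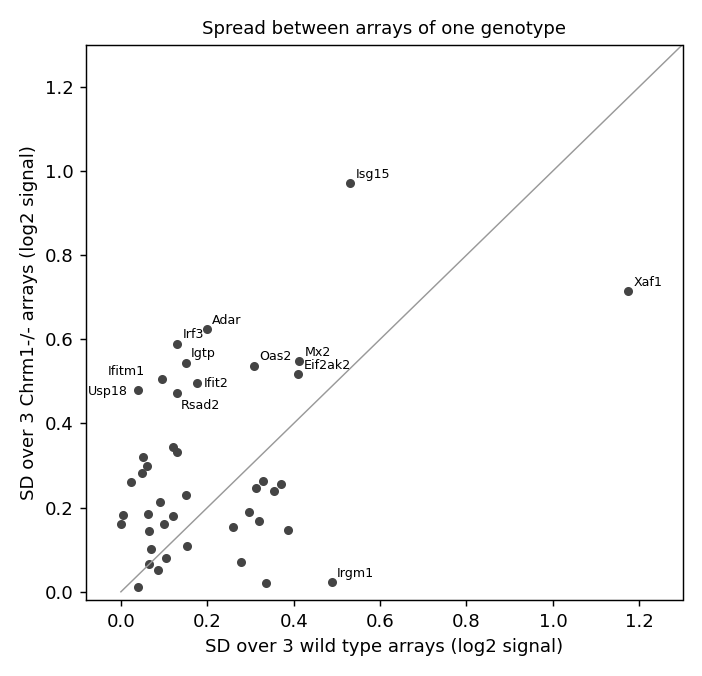
SD of the log2 signal over 3 wild type arrays (horizontal axis) against that over 3 Chrm1-/- arrays (vertical axis), 1 point per tested interferon-stimulated gene, with the line of equal SD. Above the line lie 27 genes, with Isg15, Adar, Irf3, Igtp, Ifitm1 and Usp18 far from it, and 16 lie below, among them Xaf1 and Irgm1.

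Other genes of the interferon pathway were taken from a second list of 118 names, of which 108 had a row and 85 were tested. In this list 51 were higher in Chrm1-/- and 34 lower, with a median of 0.03, where 50% and 49.2% of all tested genes were. At an unadjusted p under 0.05 in limma there was 1 higher and 1 lower of the 85, against 2.99% of all tested genes, and 0 passed the adjusted threshold. Of 8 interferon genes 4 were tested, Ifna1, Ifna4, Ifnl2 and Ifnl3, each with a higher mean in Chrm1-/-, by 0.07 to 0.36. Ifnb1 and Ifng lay below the signal for testing. The array cannot separate near-identical interferon alpha genes with certainty.

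Of 5 tested receptor genes 2 were higher in Chrm1-/- and 3 lower. Ifnar1, the first chain of the type I receptor, read 9.06, 9.42 and 9.01 in WT and 9.40, 8.16 and 8.98 in Chrm1-/-, where replicate 2 was low. Its difference was -0.32 ± 0.32 (SE), and without that array it was 0.03. Ifnar2, the other chain, differed by -0.08 ± 0.21 (SE). Ifngr1 and Ifngr2 of the interferon gamma receptor differed by 0.08 and 0.05, and Il10rb, a shared chain of the lambda receptor, by -0.11.

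The kinase gene Jak1, which serves all interferon receptors, read 11.20, 11.21 and 11.17 in WT and 11.17, 11.25 and 11.18 in Chrm1-/-, a difference of 0.01 (95% interval -0.22 to 0.24). Jak2 differed by -0.22 ± 0.16 (SE), Stat3 by -0.07, Stat4 by 0.08 and the methyltransferase gene Prmt1 by -0.02. Tyk2 and the lambda receptor chain Ifnlr1 lay below the signal for testing. The brakes, Socs1 and Socs3 among them, had 3 of 8 higher and 5 lower.

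Among sensors and adaptors, Sting1, the adaptor of cytosolic DNA sensing, read 8.89, 8.97 and 8.51 in WT and 9.76, 9.02 and 9.68 in Chrm1-/-. The 3 Chrm1-/- arrays lay above the 3 WT arrays, at a difference of 0.70 ± 0.24 (SE). The unadjusted p was 0.0258 and the adjusted p 0.996 in limma. Cgas, which makes the messenger that Sting1 binds, was singled out after its values were seen. It read 7.92, 7.15 and 6.89 in WT and 6.89, 6.92 and 6.82 in Chrm1-/-, the other way and with WT replicate 1 high.

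Of 64 further interferon-stimulated genes with a row 51 were tested, with a median difference of 0.04. Trim21, an intracellular antibody receptor, read 9.91, 9.21 and 10.01 in WT and 9.24, 8.42 and 8.16 in Chrm1-/-. Chrm1-/- replicate 1 lay just above WT replicate 2 and the others below, and the difference was -1.10 ± 0.34 (SE), with an unadjusted p of 0.0175 and an adjusted p of 0.996 in limma. Trafd1, a brake on innate signalling, differed by 0.75 ± 0.48 (SE), with Chrm1-/- replicate 3 at 10.41 and the other 5 arrays between 8.33 and 8.75, and by 0.17 without that array. Oas1g read 8.52, 8.58 and 5.78 in WT and 6.48, 4.79 and 7.52 in Chrm1-/-, overlapping widely, for -1.36 ± 0.98 (SE). Slfn2, a gene of quiescent immune cells, differed by -0.61 ± 0.51 (SE), with WT replicate 2 at 8.64 and the other 5 arrays from 6.50 to 7.26, and by -0.02 without that array. Slfn8 and Gbp8 had larger p values than the 4 genes named by rule, with differences of -1.20 (95% interval -3.68 to 1.28) and -0.77 (95% interval -2.62 to 1.09). Slfn8 read 11.34 on WT replicate 3 and between 7.49 and 7.75 on the other 5 arrays. Oas1g also shares sequence with Oas1a, and its reading is uncertain for that reason.

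**Figure D5:**
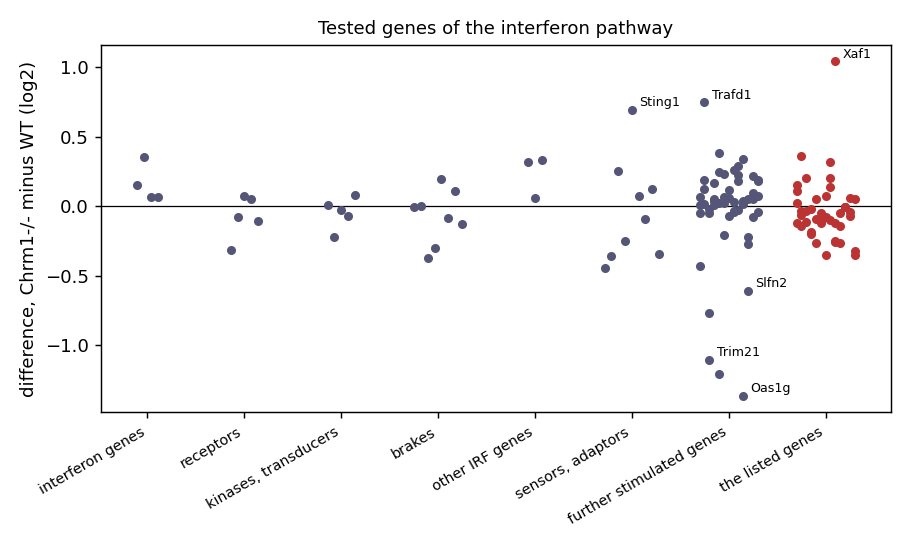
Difference in log2 signal, Chrm1-/- minus wild type, for each tested gene of the interferon pathway by subgroup (dark blue) and for the 43 listed interferon-stimulated genes (red); horizontal offsets carry no value. Most points lie near 0, and the named ones, Sting1, Trafd1, Slfn2, Trim21, Oas1g and Xaf1, did not pass the adjusted threshold.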

How the data were processed

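Signals came from 6 Affymetrix mouse gene 2.0 ST arrays, 3 of each genotype; titles set the groups. Per the series design text, a NuGEN kit amplified the RNA, and the authors used Affymetrix software for the values; the sources used here do not give its version, summarization or normalization. By their range, 3.02 to 13.67, the deposited values are read here as log2; array medians ran from 6.49 to 6.57, so no further scaling was applied. Rows with 1 symbol in the platform annotation were kept, 23521 of 41345, with the row of highest mean for each gene. Genes at or above the median mean were compared with limma 3.58.1 in R 4.3.3 (lmFit, eBayes, two-sided, Benjamini-Hochberg over all tested genes). The fit was also run on simulated data with independent normal noise for each gene. Such noise holds no equal values or outlying arrays like those seen here, and no result above rests on that run.

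The members and the lists were chosen with earlier results of these data known. All members were named; values on each array were given for a fixed set, for non-overlapping groups, for a difference or SD of at least 0.5 and for the 3 largest differences each way. Pathway genes were named at an unadjusted p under 0.05 or a difference of at least 0.5, up to 4 a subgroup by smallest p; receptors and kinases always. Nothing says that replicates are separate mice, so p-values cover only the spread among these arrays, possibly a technical one. Same-numbered arrays did not deviate together, with correlations of -0.03, 0.009 and -0.01 over tested genes.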

Additional observations from a re-analysis of the deposited data

How the results depend on the processing

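The 15 alternatives changed the filter on dim genes, the scaling, the row per gene, the moderation, array weights or the replicate block, or left out 1 array. Under each of them 0 of the interferon-stimulated genes it tested passed the adjusted threshold in limma; their smallest adjusted p was 0.957. Over all tested genes 1 passed without moderation (Apmap), and 0 to 1 on leaving out an array: Gdpd3 without WT replicate 1 and Snord49a without Chrm1-/- replicate 3. The members with an unadjusted p under 0.05 numbered 2 without moderation (Gbp7 and Iigp1; 2.28% of all genes), 1 with the replicate block (Xaf1; 3.57%) and 0 to 2 on leaving out an array (3.04% to 4.7%). These were Ifit1 without WT replicate 3, Igtp and Irf3 without Chrm1-/- replicate 1, Adar without replicate 2 and Parp9 without replicate 3. Non-overlapping groups numbered 4 to 7 on leaving out an array, when 13.1% to 17.7% of all genes did not overlap. Gbp7 and Iigp1 were among them each time. That was fixed in advance, since groups already apart stay apart when an array is left out. Median centring added Parp9. The median difference ran from -0.0633 to -0.0083 over these fits. The replicate block changed no adjusted call, and the numbers only name the arrays. The count of 27 genes with a larger SD in Chrm1-/- was 17 under the stricter filter, with 31 genes (50.1% of all genes), and 20 to 32 on leaving out an array (40% to 62.4%).

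Of 42 members refitted without each array 25 changed sign on leaving out some array, and 17 did not. Of the 17, Gbp7 and Iigp1 alone stayed within 1.5 times their difference. Their groups lay apart, so their signs could not change. How many of all tested genes stay within 1.5 times was not counted. Mx1 was not refitted, and Ifitm1 dropped below the filter without Chrm1-/- replicate 1, where its means differed by -0.24. The ranges over these fits were -0.0667 to 0.24 for Irf1, -0.23 to 0.0533 for Irf9, -0.65 to 0.31 for Isg15, -0.18 to 0.0317 for Isg20 and -0.36 to 0.14 for Ifit2. They were -0.18 to 0.10 for Ifitm2, -0.15 to 0.0167 for Ifitm3, -0.23 to 0.0867 for Ifi35, -0.31 to 0.06 for Ifih1, -0.05 to 0.03 for Ddx58 and -0.065 to 0.085 for Dhx58. Oas2 ran from -0.38 to 0.16, Oas3 from -0.07 to 0.0017, Oasl1 from -0.24 to 0.055, Rsad2 from -0.19 to 0.26 and Usp18 from -0.23 to 0.22. Bst2 ran from -0.14 to 0.12, Irgm1 from -0.41 to 0.0183, Parp14 from -0.19 to 0.13, Samhd1 from -0.0467 to 0.10 and Adar from -0.47 to 0.12. Cmpk2 ran from -0.25 to 0.05, Zbp1 from -0.05 to 0.11, Lgals3bp from -0.16 to 0.12 and Rnf213 from -0.10 to 0.0483. Without a change of sign, Ifit3 ran from 0.06 to 0.22, Gbp3 from 0.10 to 0.33, Parp9 from -0.36 to -0.18, Rtp4 from 0.0083 to 0.34 and Trim25 from -0.15 to -0.05. Of the pathway genes, Ifnar1 ran from -0.59 to 0.0267, Ifnar2 from -0.23 to 0.13, Ifngr1 from -0.0033 to 0.16, Ifngr2 from -0.26 to 0.46, Il10rb from -0.33 to 0.13, Jak1 from -0.0183 to 0.0217 and Prmt1 from -0.29 to 0.21. Other settings turned the sign for Ifi35 with the mean of its clusters (0.0333), Bst2 (0.0094) and Parp14 (0.0178) with quantile normalization, Jak1 with median centring (-0.0033), and Dhx58 (0.014), Bst2 (0.03), Lgals3bp (0.0474) and Prmt1 (0.0214) with array weights. The cause of these turns was not tested. The number of arrays limits the precision.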

Other observations

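Some members carried exactly the same deposited value, to 2 decimals, on several arrays. At least 3 of the 6 arrays shared a value for 6 of the 43 tested genes (14%) and for 9.74% of all tested genes. Dhx58 read 8.04 on all 3 WT arrays, Ddx58 read 9.50 on 4 arrays, and Bst2 read 9.01, Irgm1 7.91, Rnf213 8.75 and Zbp1 8.56 on 3 arrays each. How the values came to be equal was not tested.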
